A study of Mus musculus with 70 samples.

Results

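Collagens and laminins build the extracellular matrix, and integrins are the cell surface receptors that bind it. The genes described here are all rows whose symbol names a collagen chain, a laminin alpha, beta or gamma chain, or starts with the integrin stem. They number 86 of the 23078 genes in the deposited table, with 44 collagens, 11 laminins and 31 integrin symbols. The rule reads symbols alone. Among the integrin symbols, 4 (Itgbl1, Itgb1bp1, Itgb1bp2 and Itgb3bp) fit the name pattern but encode no integrin subunit. Levels are in TPM, an abundance per transcript length that is scaled so that every library has an equal sum. A gene was tested when its mean reached at least 1 TPM in at least 1 group, which 63 of the 86 did: 34 collagens, 7 laminins and 22 integrin symbols.

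Messenger RNA was sequenced from GFP-positive cells sorted from the dorsal cortex of C57Bl/6 mice with the genotype given as wild-type, all carrying a GFP reporter transgene. Newborn neurons (NBN) came from Tbr2::GFP animals, with 14 libraries over 5 stages from E15.5 to postnatal day 1 (PN). The same line gave basal progenitors (BP), intermediate cells that make neurons outside the ventricular zone, with 23 libraries over 8 stages from E12.5 to PN. Neural stem cells (NSC) came from Hes5::GFP animals, with 33 libraries over 10 stages from E10.5 to PN. The 70 libraries form 23 groups of 2 to 4, and each is given by cell type and stage. Reporter line and cell type cannot be told apart in any comparison with NSC. The labels do not say by what step NBN and BP were told apart among Tbr2::GFP cells, nor whether replicates came from different animals. The p-values therefore describe spread among libraries, some of which may be technical.

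A basement membrane is a sheet in which a laminin network and a type IV collagen network are linked together, and the cortex carries one at its pial surface and around its vessels. The stem cells of the embryonic cortex are radial glia, whose basal end feet attach to the pial basement membrane through integrins and other receptors. Each laminin is a trimer of an alpha, a beta and a gamma chain, each collagen a trimer of alpha chains, and each integrin a pair of an alpha and a beta subunit.

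The depth of sequencing cannot be read from TPM and is unknown, so no counting interval can be given, and a value of 0 says only that a gene is listed at 0. The libraries listed 16098 to 21210 genes above 0. No pair of libraries held identical values, and for 67 of 70 the nearest library by expression was a replicate of that group. NSC PN replicate 3 is named basal progenitor in its cell type field and NSC in its title, and it was kept as NSC. Counts of called members without it are 11 for BP against NSC, 27 for NBN against NSC, 26 for NSC late against mid and 12 for the difference between BP and NSC in that change. All 70 libraries are labelled female, but 46 held more than 5 TPM of summed transcript from 4 Y-linked genes. Summed levels of 8 stem cell markers ran from 219 to 479 TPM in NBN, 524 to 964 TPM in BP and 1578.5 to 11922 TPM in NSC. The sum of 7 basal progenitor markers ran from 160 to 337 TPM in NBN, 952 to 1798 TPM in BP and 181 to 1924 TPM in NSC, and these ranges overlap between BP and NSC. At E13.5, E14.5 and E17.5 each NSC library was above each BP library in this sum, with 1122 to 1204 TPM in BP and 1700 to 1867 TPM in NSC at E17.5. The sum of 8 neuronal markers ran from 5737 to 8987 TPM in NBN and from 3855 to 6947 TPM in BP. In NSC it was at most 489 TPM at E10.5 and 2667.5 to 5833 TPM from E13.5 to E15.5, which overlaps BP. The part of neuronal transcript in the NSC values by stage was not tested. The libraries are bulk samples, in which fewer cells of a type and less RNA per cell cannot be told apart.

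The highest levels of these genes lay mostly in NSC. For 51 of the 63 tested members the highest of the 23 group means was in an NSC group, for 9 in a BP group and for 3 in an NBN group. The peak was in NSC PN for 20 members and in NSC E10.5 for 18. The matching shares over all tested genes are not given here, and 10 of the 23 groups are NSC, among them the only groups at E10.5 and E11.5. These counts therefore describe the members and show no trait particular to them. Itgb1, the beta subunit shared by most matrix-binding integrins, had the highest mean over groups of all members at 114.6 TPM. The collagens with the highest means over the 23 groups were Col2a1 at 27.4 TPM, Col9a3 at 22.5 TPM and Col18a1 at 13.6 TPM, and the laminins were Lamb1 at 19.4 TPM, Lamc1 at 16.7 TPM and Lamb2 at 10.4 TPM.

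**Figure D1:**
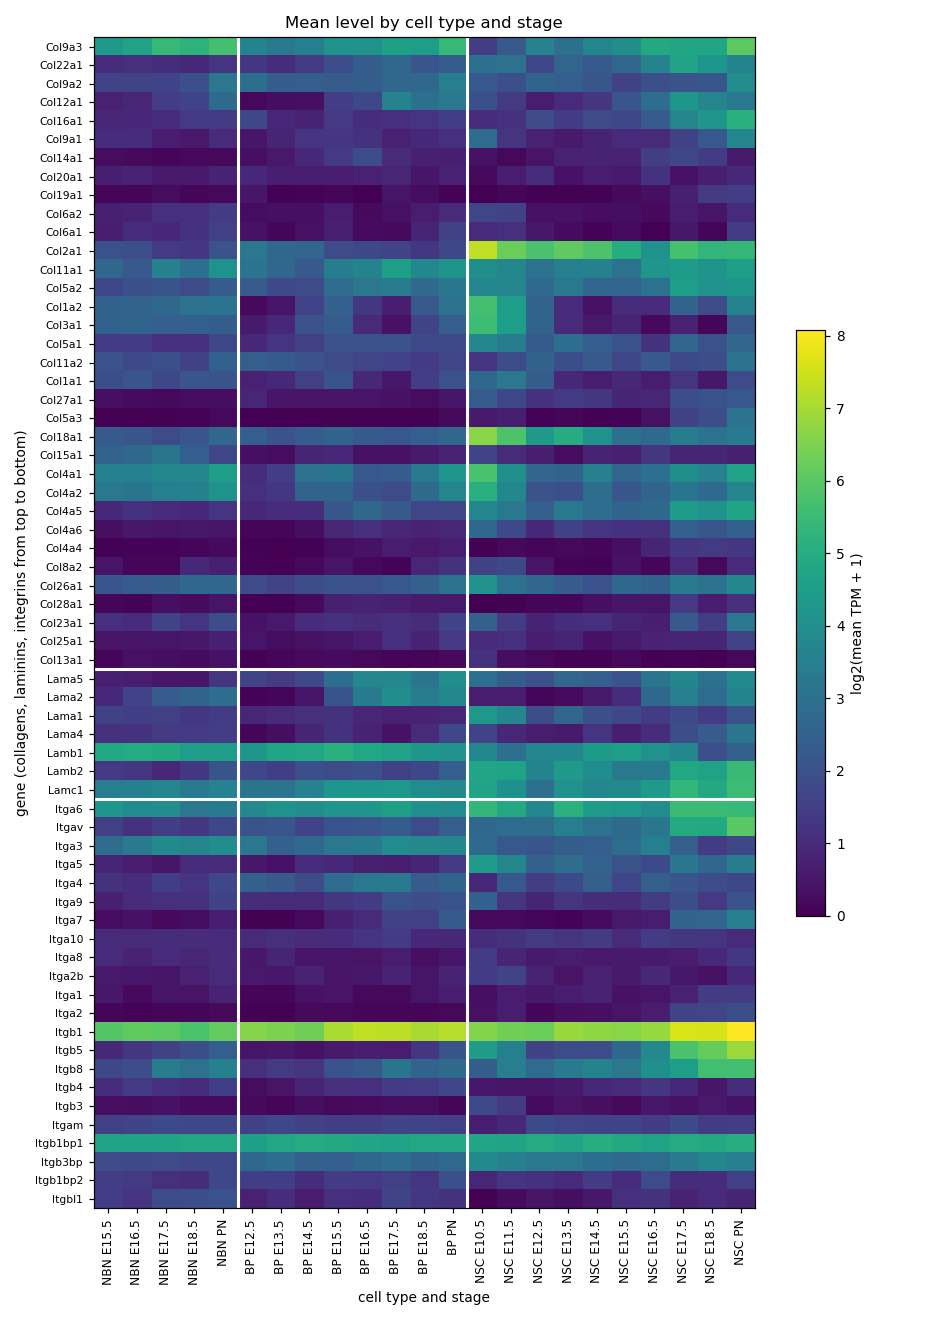
Heat map of the 63 tested members (rows, with collagens, laminins and integrins from top to bottom) in the 23 groups (columns, NBN, BP and NSC, each in order of stage), coloured by log2(mean TPM + 1) over the 2 to 4 libraries of a group. The brightest row is Itgb1, and most rows are brightest at E10.5 or at PN within NSC, as for 18 and 20 of the 63 members.

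The 23 members that reached 1 TPM in no group mean included most leukocyte integrin subunits. Itgb2, the shared beta subunit of leukocyte integrins, peaked at 0.321 TPM in NBN PN, and Itgal, Itgax and Itgad peaked at 0.305, 0.0400 and 0.0601 TPM. Itgam, a leukocyte alpha subunit, was the exception with 1.79 to 2.50 TPM over NBN libraries, 1.43 to 2.88 TPM over BP libraries and 0.533 to 2.95 TPM over NSC libraries. In the GENCODE M21 annotation 68.7% of its exon bases lie also in the transcript Gm49368 of the same strand, so its reads cannot be assigned with certainty. The same holds for Itga10, with 33.5% of its exon bases shared with Gm42957.

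Members were compared between cell types over the stages that both have, each stage with equal weight. A gene was called higher or lower at a limma adjusted p below 0.05 with a difference of at least 1 on the log2(TPM + 1) scale, which understates the change of low genes. In BP, 1 member was higher and 11 were lower than in NSC over 8 stages, where 1.87% and 6.22% of all 15508 tested genes were called (8.09% in either direction). The median difference was -0.31 for the 63 members and -0.02 for all genes. In NBN, 1 member was higher and 9 were lower than in BP over 5 stages (4.36% and 5.06% of all genes, 9.42% in either direction), with a median of -0.07 for members and for all genes. In NBN against NSC, 4 were higher and 22 lower (6.51% and 12.6% of all genes, 19.1% in either direction), with medians of -0.54 and -0.12. The share of members lower in BP than in NSC, and lower in NBN than in NSC, lay above that of all genes, but a member that passed the minimum level only through the group where it is high had to differ, and no support is drawn from these shares. NBN against NSC shares its NSC libraries with BP against NSC and its NBN libraries with NBN against BP, so these counts are not independent.

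Change with stage was compared between windows within a cell type. In NSC, 1 member was higher and 16 were lower at mid stages (E13.5 to E15.5) than at early stages (E10.5 and E11.5), with 13.7% and 5.26% of all genes called (19% in either direction). The medians were -0.49 for members and 0.14 for all genes. Itgb3, among the 16, reached a mean of 1 TPM only in early NSC groups, which favours a call, and no support is drawn from these shares. At late stages (E17.5, E18.5 and PN) 27 members were higher and 1 was lower than at mid stages in NSC, with 9.31% and 2.45% of all genes called (11.8% in either direction) and medians of 0.67 and 0.12. Of the called members, Col5a3, Itga2, Col4a4 and Col19a1 reached a mean of 1 TPM only in late NSC groups, which favours a call. No support is drawn from these shares. Under quantile normalization, which shifted the median of all genes to -0.07, the count was 18 higher and 3 lower. In BP the same windows gave 7 higher and none lower (3.29% and 1.42% of all genes, 4.71% in either direction), and 5 members had an unadjusted limma p below 0.05 in the lower direction; quantile normalization gave 7 higher and 1 lower (Col2a1, -1.05). In NBN, 4 were higher and none lower at late stages than at E15.5 and E16.5 (1.27% and 1.06% of all genes, 2.33% in either direction), with 3 lower at an unadjusted limma p below 0.05. Quantile normalization also shifted the median of all genes to -0.04 in mid against early NSC and to 0.04 in NBN against NSC. Col5a2, Itgb3bp, Col4a6, Itga2b, Col27a1, Lamb2 and Col23a1 were then also called lower in mid against early NSC (-1.24 to -1.085). In NBN against NSC, Col1a1 (1.17) and Col4a2 (1.07) were then called higher, and the calls of Itga2 (-0.87) and Col9a1 (-0.77) were lost. Shares of all genes called under this scaling are not given here. In all, 45 of the 63 tested members were called in at least 1 of the 8 comparisons and 18 in none. The matching share of all tested genes is not given here, so nothing particular to the members is read from this count.

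Of the 7 tested laminins, 1 was higher and 1 lower in BP than in NSC, 2 were lower in NBN than in BP, 1 was higher and 3 were lower in NBN than in NSC, and 5 were higher and 1 lower in late than in mid NSC. In mid against early NSC 1 was lower (Lama1), and in late against mid BP 2 were higher. The shares of all tested genes called higher and lower were 1.87% and 6.22% for BP against NSC, 4.36% and 5.06% for NBN against BP and 6.51% and 12.6% for NBN against NSC. They were 13.7% and 5.26% for mid against early NSC, 9.31% and 2.45% for late against mid NSC, and 3.29% and 1.42% for late against mid BP. The summed level of all 11 laminins had a median of 91.95 TPM in NSC E10.5, 40.4 TPM in NSC E12.5 and 125.2 TPM in NSC PN. The laminin beta chains ran in opposite directions across the cell types. Lamb2 and Lamb1 encode alternative beta chains, on chr9:108479736-108490530 and chr12:31265234-31329644 of GRCm38. Lamb2 ranged from 1.39 to 4.93 TPM in BP (median 2.56, 23 libraries), against 5.67 to 46.0 TPM (median 17.49) in the 27 NSC libraries of the shared stages. No BP library reached the lowest NSC library, and the log2 difference was -2.34 ± 0.07 (SE; limma adjusted p = 7.98e-34). Lamb1 ranged from 13.1 to 36.2 TPM in BP (median 25.5), against 1.79 to 25.7 TPM in NSC (median 13.0). These ranges overlapped, although at 7 of 8 stages each BP library was above each NSC library, and the difference was 1.04 ± 0.08 (limma adjusted p = 2.03e-16). That call was lost over the stages up to E16.5 alone, where the difference was 0.68, at a pseudocount of 5 TPM, where it was 0.79, and without the PN libraries, where it was 0.95.

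NBN libraries resembled BP in this respect. Lamb2 stood at 0.653 to 3.61 TPM in NBN (median 1.44, 14 libraries), against 5.67 to 46.0 TPM in the 17 NSC libraries of the shared stages (median 22.1), without overlap (-2.92 ± 0.09, limma adjusted p = 9.71e-34). Lamb1 stood at 20.8 to 33.3 TPM in NBN (median 27.2) and at 1.79 to 25.7 TPM in NSC (median 13.0), with a difference of 1.44 ± 0.11 that shrank to 0.66 over the stages up to E16.5. The ratio of mean Lamb2 to mean Lamb1 ran from 0.0306 in NBN E17.5 to 9.20 in NSC PN. Across the 23 group means the log2 levels of the beta chains had a Pearson r of -0.83 and a Spearman rho of -0.84, as a description only, since the groups share cell type and stage.

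Within NSC the beta chains exchanged places over the series, with Lamb2 above Lamb1 at E10.5 (26.0 and 11.99 TPM as group means), below it from E14.5 to E16.5 and above it again from E17.5. At late stages Lamb1 stood at 1.79 to 14.3 TPM (median 4.77, 9 libraries), against 9.16 to 25.7 TPM at mid stages (median 18.2, 11 libraries), a fall of 1.51 on the log2 scale (-1.51 ± 0.13, limma adjusted p = 4.73e-15). It was the only laminin chain called lower in this comparison. Lamb2 stood at 22.1 to 46.0 TPM at late stages (median 29.5), above all mid-stage libraries at 7.04 to 20.7 TPM (median 15.6), and rose by 1.18 ± 0.11 (limma adjusted p = 2.2e-13). At PN the NSC group means were 43.2 TPM for Lamb2 and 4.69 TPM for Lamb1, and at E15.5 they were 8.61 and 21.5 TPM. Lamb2 varied with 6 astroglial markers between libraries of a group (r = 0.67 over 70 libraries after centring on group means, a description). The same measure was 0.51 with meningeal and -0.48 with neuronal markers for Lamb2, and 0.46 with endothelial, 0.48 with pericyte and 0.43 with neuronal markers for Lamb1. The neuronal sum in NSC was at most 489 TPM at E10.5, 2667.5 to 5833 TPM at mid stages and 848 to 2414 TPM at late stages. The part of astroglial, meningeal, neuronal, endothelial and pericyte cells in the course of either chain was not tested.

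**Figure D2:**
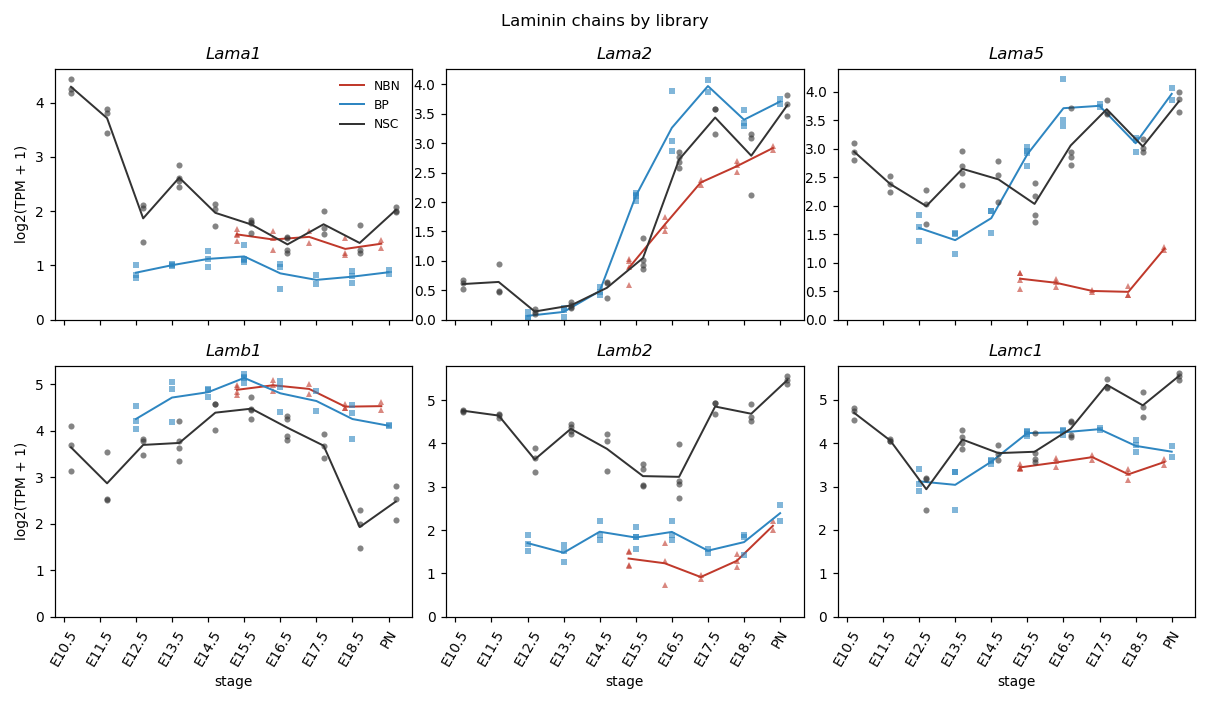
Levels of 6 laminin chains as log2(TPM + 1) by stage, each point a library and each line the mean of a group, for NBN (red), BP (blue) and NSC (black). Lamb2 in NSC lies above the other cell types at every shared stage, Lamb1 in NSC drops at E18.5, and Lama5 in NBN does not exceed 1.43 TPM.

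Alpha chains, which carry the main receptor-binding domains of a laminin, differed by stage. Lama2 encodes the alpha chain that is abundant in muscle and is also made in brain. It rose in BP, where late libraries held 8.79 to 15.8 TPM (median 11.7, 7 libraries) and mid libraries 0.0287 to 3.46 TPM (median 0.4301, 10 libraries). The ranges did not overlap, and the difference was 2.79 ± 0.11 (limma adjusted p = 4.41e-28). It rose in NSC too, with 3.35 to 13.2 TPM at late stages (median 9.97) and 0.153 to 1.62 TPM at mid stages (median 0.535), a difference of 2.68 ± 0.10 (limma adjusted p = 7.78e-31). In NBN it reached 3.90 to 6.75 TPM at late stages (median 5.19) and 0.506 to 2.35 TPM at E15.5 and E16.5 (median 1.04), again without overlap (1.38 ± 0.12, limma adjusted p = 3.17e-14). Lama2 was thus called higher with stage in each of the cell types, although the NBN call was lost at a pseudocount of 5 TPM (0.66).

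Lama5 set NBN apart from BP. It encodes a broadly used alpha chain of mature basement membranes, on chr2:180176373-180225859. NBN libraries held 0.354 to 1.43 TPM (median 0.538), against 5.45 to 17.6 TPM in BP libraries of the same stages (median 8.87). No NBN library came near the lowest BP library, and at -2.77 ± 0.09 (limma adjusted p = 6.43e-32) this was the largest difference of any member between these cell types. NBN were also below NSC, which held 2.29 to 14.9 TPM at these stages (median 7.09; -2.41 ± 0.09). In BP itself Lama5 rose from mid to late stages, with 6.73 to 15.7 TPM late and 1.22 to 7.21 TPM mid (1.58 ± 0.12, limma adjusted p = 8.97e-17). This rise was no longer called at a pseudocount of 5 TPM (0.97).

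Lama1, the alpha chain of early embryonic basement membranes, was high in the youngest NSC. Its libraries held 20.6, 17.2 and 18.1 TPM at E10.5, 13.8, 13.0 and 9.89 TPM at E11.5 and 3.18, 3.30 and 1.70 TPM at E12.5. At mid stages the range was 2.01 to 6.24 TPM (median 3.14), below all 6 early libraries at 9.89 to 20.6 TPM (median 15.46), a fall of 1.89 on the log2 scale (-1.89 ± 0.09, limma adjusted p = 2.28e-25). The gamma chain Lamc1, shared by most laminins, rose in NSC to 23.4 to 48.4 TPM at late stages (median 38.5), against 10.8 to 18.8 TPM at mid stages (median 13.54; 1.37 ± 0.09, limma adjusted p = 1.91e-19). Lamc1 was lower in NBN, at 7.83 to 12.3 TPM (median 10.1), than in NSC at 10.8 to 48.4 TPM (median 23.4; -1.27 ± 0.07).

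Of the 34 tested collagens, 6 were lower in BP than in NSC, 1 was higher and 4 were lower in NBN than in BP, and 2 were higher and 10 lower in NBN than in NSC. In NSC, 1 was higher and 12 were lower at mid than at early stages, and 16 were higher at late than at mid stages. Of all tested genes, 6.22% were lower in BP than in NSC, 4.36% were higher and 5.06% lower in NBN than in BP, and 6.51% were higher and 12.6% lower in NBN than in NSC. In NSC, 13.7% of all tested genes were higher and 5.26% lower at mid than at early stages, and 9.31% were higher at late than at mid stages. The median difference of the collagens was -0.76 in mid against early NSC and 0.86 in late against mid NSC. The summed level of all 44 collagens had a median of 542.7 TPM in NSC E10.5, 109.3 TPM in NSC E15.5 and 387.3 TPM in NSC PN.

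The type IV pair Col4a1 and Col4a2 had similar group means. They encode the partner chains of the basement membrane network found around vessels and under the pia, and lie head to head on chromosome 8 with their start sites 21 bases apart. The RefSeq promoter windows, from 250 bases before to 50 after each start (GRCm38.p6), overlap over 78 bases and are shown because the pair shares this stretch. It is in capitals below, read 5′ to 3′ on each gene's own strand, so that the capitals of one line are the reverse complement of those of the other. The windows are chr8:11312777-11313076 on the minus strand for Col4a1 and chr8:11312555-11312854 on the plus strand for Col4a2.
Col4a1: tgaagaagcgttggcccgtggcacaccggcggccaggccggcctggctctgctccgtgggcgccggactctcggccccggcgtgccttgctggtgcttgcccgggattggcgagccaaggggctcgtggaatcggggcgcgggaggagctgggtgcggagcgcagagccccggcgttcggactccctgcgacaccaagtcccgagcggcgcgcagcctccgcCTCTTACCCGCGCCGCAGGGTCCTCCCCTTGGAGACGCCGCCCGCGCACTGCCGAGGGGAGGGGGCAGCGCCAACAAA
Col4a2: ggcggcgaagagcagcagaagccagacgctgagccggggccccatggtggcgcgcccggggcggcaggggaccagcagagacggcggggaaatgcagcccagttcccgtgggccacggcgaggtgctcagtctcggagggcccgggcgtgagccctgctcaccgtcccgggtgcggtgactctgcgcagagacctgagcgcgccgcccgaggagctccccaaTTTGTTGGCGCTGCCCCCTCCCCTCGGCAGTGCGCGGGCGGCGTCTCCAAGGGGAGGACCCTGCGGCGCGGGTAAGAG
GC content was 74.0% for Col4a1 and 73.7% for Col4a2. On both strands the GC box letters GGGCGG occurred 1 time in the Col4a1 window and 3 times in the Col4a2 window, and 35.7% of 32851 promoter windows hold them. The letters CCAAT occurred 1 time in each window, and 37.4% of windows hold them. These are letter matches and show no binding.

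In NSC, Col4a1 stood at 69.4, 51.2 and 40.8 TPM at E10.5, at 12.8, 10.5 and 23.8 TPM at E11.5 and at 5.97, 6.47 and 3.57 TPM at E12.5. Mid-stage NSC held 3.42 to 17.2 TPM (median 5.002), against 10.5 to 69.4 TPM at early stages (median 32.3), with overlapping ranges and a fall of 2.02 on the log2 scale (-2.02 ± 0.21, limma adjusted p = 6.51e-13). Col4a2 gave 2.16 to 11.3 TPM at mid stages (median 3.22) and 8.47 to 42.2 TPM at early stages (median 22.0; -2.12 ± 0.20, limma adjusted p = 5.04e-14). At late stages Col4a1 rose again, to 5.95 to 29.6 TPM (median 14.6; 1.20 ± 0.18, limma adjusted p = 7.18e-08), a call that was lost under quantile normalization (0.94). Col4a2 stood at 3.07 to 14.8 TPM at late stages (median 8.31) and was not called against mid stages (0.86 ± 0.18, limma adjusted p = 2.53e-05), since the difference was under 1. The ratio of the chains stayed between 0.929 and 2.04 in all 23 groups, and the Pearson r of their log2 group means was 0.98.

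Both genes moved with markers of vessels between libraries of the same group. After centring on group means, log2 Col4a1 correlated with the summed level of 12 endothelial markers at r = 0.87 and with that of 7 pericyte markers at r = 0.86 over the 70 libraries. The values were 0.85 and 0.81 for Col4a2, and 0.84 and 0.84 for Lama4, the laminin alpha chain typical of vessels. The endothelial sum ranged from 15.9 to 61.6 TPM at early, 8.12 to 59.9 TPM at mid and 22.9 to 123 TPM at late stages of NSC, and the pericyte sum from 2.93 to 19.2, 2.72 to 15.6 and 22.5 to 65.2 TPM. From mid to late NSC 2 of 12 endothelial and 2 of 6 tested pericyte markers were called higher, and the part of these cells in the values of Col4a1, Col4a2 and Lama4 was not tested.

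Col4a5 and Col4a6, the other neighbouring type IV pair, lie on chromosome X with start sites 1343 bases apart and windows that do not overlap. Col4a5 stood at 0.642 to 5.99 TPM in BP (median 2.40), against 3.24 to 26.8 TPM in NSC (median 7.56; -1.68 ± 0.07, limma adjusted p = 7.27e-28). In NBN it was lower still, at 0.470 to 1.72 TPM (median 0.938), below all BP libraries of these stages at 1.78 to 5.99 TPM (median 3.54; -1.09 ± 0.10, limma adjusted p = 1.18e-14). In NSC it rose to a median of 21.9 TPM at late stages, all above the 3.86 to 9.59 TPM of mid stages (1.54 ± 0.11). Col4a6 followed at lower levels (r = 0.96 over the 23 group means) and was called lower in BP than in NSC at -1.01, a call that leaving out any of 12 single libraries ends, with values from -0.987 to -0.999.

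Col2a1, the fibrillar collagen of cartilage and of the early neuroepithelium, had the highest mean level of the collagens and was higher in NSC at every shared stage. BP libraries held 1.09 to 9.24 TPM (median 2.95), against 11.03 to 73.5 TPM in NSC of the shared stages (median 41.5). The groups did not overlap, and the difference was -3.28 ± 0.08 (limma adjusted p = 1.08e-37). NBN libraries held 1.13 to 4.47 TPM (median 2.52), against 11.03 to 55.6 TPM in NSC (median 33.3; -3.35 ± 0.11, limma adjusted p = 8.52e-34). Over time in NSC, its group mean was 157 TPM at E10.5, 75.5 at E11.5, 31.1 at E15.5, 16.1 at E16.5 and 40.7 TPM at PN. Mid-stage libraries (22.6 to 73.5 TPM, median 56.0) were lower than early ones (64.3 to 175.3 TPM, median 117), by 1.15 ± 0.15 on the log2 scale (-1.15, limma adjusted p = 8.14e-10).

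Col18a1, a proteoglycan collagen of basement membranes whose end fragment is endostatin, was next to Col2a1 in early NSC. It stood at 111, 96.7 and 88.5 TPM at E10.5 and 59.8, 48.6 and 57.8 TPM at E11.5. Mid-stage NSC held 5.31 to 34.0 TPM (median 18.8), below all early libraries at 48.6 to 111 TPM (median 74.2; -2.20 ± 0.12, limma adjusted p = 1.48e-22). BP libraries stayed at 3.04 to 6.18 TPM (median 4.14), against 4.76 to 34.0 TPM in NSC of the shared stages (median 8.70; -1.23 ± 0.07). Its relative Col15a1 showed another order. Col15a1 stood at 2.22 to 8.43 TPM in NBN (median 4.47), against 0.246 to 1.05 TPM in BP (median 0.560), without overlap (1.88 ± 0.11, limma adjusted p = 1.52e-21). It was the only member called higher in NBN than in BP, though without NBN E16.5 replicate 1 Col3a1 was called too (1.02). Under quantile normalization and under median ratio scaling Col4a2 was called as well, at 1.02 and 1.01. Col15a1 was also higher in NBN than in NSC, which held 0.350 to 1.70 TPM (1.61 ± 0.10). Between libraries of the same group log2 Col15a1 correlated with the endothelial sum at r = 0.59 and with the pericyte sum at r = 0.61, and the part of these cells in its values was not tested.

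The fibril-forming collagens of connective tissue were highest in the earliest NSC libraries. Col1a2, a chain of type I collagen, stood at 77.2, 45.9 and 26.7 TPM at E10.5, at 7.19, 11.8 and 46.3 TPM at E11.5 and at 0.265 to 1.81 TPM in mid-stage NSC. Col3a1, which forms fibrils with type I, stood at 64.6, 44.3 and 31.0 TPM at E10.5, at 7.59, 12.496 and 46.1 TPM at E11.5 and at 0 to 1.62 TPM at mid stages. The log2 differences between mid and early NSC were -4.04 ± 0.34 for Col1a2 and -4.09 ± 0.32 for Col3a1 (limma adjusted p = 1.28e-15 and 4.86e-17). NSC E11.5 replicate 3 held several times more of both than the other replicates of its stage, and without it the differences were -3.67 and -3.73. Without the E10.5 libraries, an alternative chosen after seeing the data, they were -3.31 and -3.40.

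These collagens moved with markers of the meninges, the connective tissue around the brain. The summed level of 8 meningeal and fibroblast markers was 4.52, 7.01 and 26.8 TPM in the E11.5 NSC replicates 1, 2 and 3, which is the order of Col1a2 and Col3a1. It ranged from 4.52 to 44.6 TPM in early, 1.71 to 4.65 TPM in mid and 10.6 to 25.5 TPM in late NSC. Within groups, r with this sum over the 70 libraries was 0.89 for Col3a1 and Col1a2, 0.84 for Col1a1, 0.80 for Col6a1 and 0.77 for Col6a2, but 0.45 for Col2a1 and 0.43 for Col18a1. The sum of 6 globin and red cell genes was 0.565 to 107 TPM in mid-stage NSC and 1191 to 8043 TPM in early NSC. In mid-stage NSC all 6 erythroid markers, 3 of 7 tested meningeal markers and 1 of 12 endothelial markers were called lower, and their part in the lower collagens was not tested. The neuronal sum was at most 2792 TPM in early NSC and 2667.5 to 5833 TPM in mid-stage NSC. Its part in the members lower at mid stages was not tested either.

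Col3a1 was also called higher in NBN than in NSC, at 0 to 7.94 TPM (median 4.30) against 0 to 4.73 TPM (median 0.480; 1.498 ± 0.229, limma adjusted p = 5.54e-08). The ranges overlapped, and NBN E16.5 replicate 1, the library listed at 0, had the lowest meningeal sum of its stage at 2.24 TPM, against 12.7 and 13.7 TPM in the other replicates. Over the shared stages the meningeal sum ran from 2.24 to 20.96 TPM in NBN and from 1.49 to 25.5 TPM in NSC. At E15.5 and E16.5 it was 8.17 to 13.7 TPM in the other 6 NBN libraries and 1.49 to 4.65 TPM in the 8 NSC libraries, and its part in the Col3a1 result was not tested.

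FACIT collagens, which sit on the surface of fibrils, included the collagens that rose most with stage. Col9a3, a chain of type IX collagen, was the one member higher at mid than at early stages in NSC. Without NSC E10.5 replicate 1, E11.5 replicate 3 or E14.5 replicate 1 Lamb1 was called too, at 1.06, 1.11 or 1.01. Col9a3 stood at 1.81, 1.86 and 1.70 TPM at E10.5, at 3.66, 3.83 and 3.77 TPM at E11.5 and at 6.12 to 16.4 TPM in mid-stage libraries, without overlap (1.68 ± 0.08, limma adjusted p = 1.35e-24). It rose again at late stages, to 23.4 to 72.2 TPM in NSC (1.64 ± 0.07) and, in BP, to 19.4 to 46.5 TPM against 7.29 to 18.6 TPM at mid stages (1.21 ± 0.08). Its partner chain Col9a1 did not follow it: the ratio of mean Col9a1 to mean Col9a3 ran from 3.49 in NSC E10.5 to 0.0130 in NBN E18.5, and r over the 23 group means was 0.04.

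Col12a1, a FACIT of dense connective tissue, rose in BP to 3.54 to 11.4 TPM at late stages (median 8.36), against 0.174 to 1.94 TPM at mid stages (median 0.295; 2.53 ± 0.14, limma adjusted p = 1.39e-21). In NSC late libraries held 7.33 to 19.3 TPM and mid libraries 0.869 to 5.21 TPM (2.27 ± 0.13). In NBN they held 1.49 to 6.68 TPM and, at E15.5 and E16.5, 0.508 to 1.13 TPM (1.17 ± 0.15). Col16a1 rose in NSC, to 10.7 to 41.7 TPM at late stages (median 17.1), against 1.09 to 3.67 TPM at mid stages (median 1.97; 2.69 ± 0.15, limma adjusted p = 4.48e-23), while BP late libraries held 0.976 to 2.06 TPM. Of the 9 FACIT collagens 6 rose in late NSC and 2 in late BP, and 4 were lower in NBN than in NSC. The shares of all tested genes were 9.31%, 3.29% and 12.6%. Col19a1, among the 6, passed the minimum level only through late NSC. Its call was lost under quantile normalization (0.72) and median ratio scaling (0.97). Col11a1, a minor fibrillar chain that sets fibril width, rose in all 3 cell types, by 1.04 ± 0.09 in NSC, 1.40 ± 0.10 in BP and 1.08 ± 0.11 in NBN. The NBN call for Col11a1 was lost with other stage windows (0.88), without the PN libraries (0.78), under quantile normalization (0.98) and at a pseudocount of 5 TPM (0.72). Its NSC call was lost under quantile normalization (0.82), under median ratio scaling (0.94) and without NSC E18.5 replicate 2 (0.9995).

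**Figure D3:**
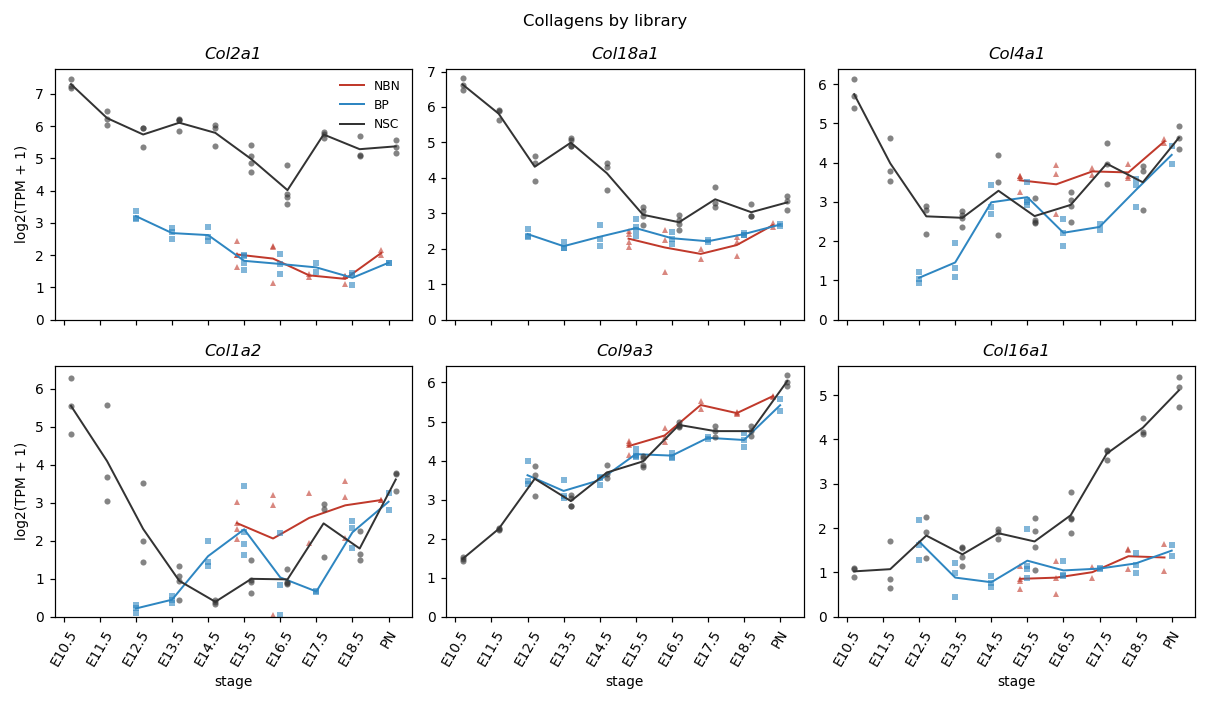
Levels of 6 collagens as log2(TPM + 1) by stage, each point a library and each line the mean of a group, for NBN (red), BP (blue) and NSC (black). Col2a1 in NSC lies above the other cell types throughout, Col18a1, Col4a1 and Col1a2 are highest at E10.5, and Col9a3 is higher at late than at mid stages in BP and NSC.

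Of the 22 tested integrin symbols, 4 were lower in BP than in NSC, 3 were lower in NBN than in BP, and 1 was higher and 9 were lower in NBN than in NSC. In NSC, 3 were lower at mid than at early stages and 6 were higher at late than at mid stages. The shares of all tested genes were 6.22% lower for BP against NSC, 5.06% lower for NBN against BP, and 6.51% higher and 12.6% lower for NBN against NSC. In NSC they were 5.26% lower for mid against early stages and 9.31% higher for late against mid stages. Their summed level over all 31 symbols had a median of 243.5 TPM in NSC E10.5, 194.35 TPM in NSC E15.5 and 612.2 TPM in NSC PN.

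The integrin subunit with the highest level, Itgb1, separated NBN from both progenitor types. NBN libraries held 49.4 to 71.8 TPM (median 64.6), against 124 to 168 TPM in BP of the same stages (median 136). The ranges did not overlap, and the difference was -1.16 ± 0.04 (limma adjusted p = 2.34e-29). NSC of these stages held 87.5 to 276 TPM (median 171), again above all NBN libraries (-1.35 ± 0.04, limma adjusted p = 2.47e-34). In late NSC Itgb1 rose to 171 to 276 TPM (median 207), above the 87.5 to 123 TPM of mid stages (median 103; 1.04 ± 0.05, limma adjusted p = 8.03e-25), although under median ratio scaling the difference was 0.93 and no longer called. Itgb1bp1, whose product binds the cytoplasmic tail of this subunit, stayed at 22.4 to 28.8 TPM in NBN, 22.8 to 31.0 TPM in BP and 23.5 to 34.0 TPM in NSC and was called in no comparison; 16.9% of its exon bases overlap genes of the opposite strand.

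Itgb5, a beta subunit that pairs with Itgav and binds vitronectin, had the largest differences from NSC among the integrins in both BP and NBN. BP libraries held 0.0490 to 3.97 TPM (median 0.544), against 1.53 to 120 TPM in NSC of the shared stages (median 7.44). Within each of the 8 stages every BP library lay below every NSC library, and the difference was -2.99 ± 0.09 (limma adjusted p = 6.77e-35). NBN held 0.603 to 5.31 TPM (median 1.88), against 4.06 to 120 TPM in NSC (median 43.9; -3.45 ± 0.11, limma adjusted p = 2.51e-33).

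Its course within NSC had a minimum in the middle of the series. The group means were 20.9 TPM at E10.5, 10.2 at E11.5, 2.01 at E12.5, 5.71 at E15.5, 13.1 at E16.5, 53.3 at E17.5 and 114.9 TPM at PN. Mid-stage libraries (1.82 to 9.52 TPM, median 2.90) were lower than early ones (8.10 to 27.6 TPM, median 13.9), with a difference of -1.80 ± 0.16 (limma adjusted p = 3.07e-15). Late libraries (43.9 to 120 TPM, median 72.6) lay above all mid-stage ones, with a difference of 4.14 ± 0.14 (limma adjusted p = 2.67e-32), the largest of any member in any comparison between windows. In all, 5 members fell from early to mid NSC and rose from mid to late NSC, and the matching share of all tested genes is not given here.

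The partner Itgav and the alternative partner Itgb8 shared part of this pattern. Itgav stood at 24.8 to 72.9 TPM in late NSC (median 31.5), against 4.37 to 11.8 TPM in mid NSC (median 7.92; 2.20 ± 0.09, limma adjusted p = 1.05e-27). NBN held 1.14 to 2.52 TPM of Itgav (median 1.58), below all NSC libraries at 4.37 to 72.9 TPM (median 24.8; -2.91 ± 0.08, limma adjusted p = 1.23e-37), and BP held 1.70 to 4.98 TPM (-1.82 ± 0.06 against NSC). Itgb8, which with Itgav binds latent TGF-beta, stood at 16.6 to 58.0 TPM in late NSC (median 42.9), against 5.83 to 12.9 TPM in mid NSC (median 9.41; 1.90 ± 0.10). It also rose in BP, to 4.40 to 8.03 TPM late against 1.06 to 3.88 TPM mid (1.298 ± 0.116, limma adjusted p = 5.39e-14), and in NBN, to 6.69 to 11.3 TPM late against 2.05 to 3.42 TPM early (1.49 ± 0.13, limma adjusted p = 3.36e-14). The NBN call was lost at a pseudocount of 5 TPM (0.89). BP were lower in Itgb8 than NSC, at 1.03 to 8.03 TPM (median 3.45) against 4.21 to 58.0 TPM (median 12.9; -2.03 ± 0.07, limma adjusted p = 8.4e-33). Over the 23 group means r with Itgav was 0.85 for Itgb5 and 0.80 for Itgb8.

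Among laminin receptor alpha subunits, Itga3 and Itga6 had unlike courses. Itga3 stood at 5.84 to 15.2 TPM in NBN (median 10.5), against 0.990 to 12.4 TPM in NSC of the same stages (median 5.42), with a difference of 1.17 ± 0.08 (limma adjusted p = 3.74e-19). Over the stages up to E16.5 alone it was -0.083 (limma adjusted p = 0.537), and the call was also lost at a pseudocount of 5 TPM (0.73) and without the PN libraries (0.90). Itga6 stood at 7.21 to 18.7 TPM in NBN (median 14.52) and 12.53 to 54.4 TPM in NSC (median 36.1; -1.21 ± 0.11, limma adjusted p = 1.76e-15). The ratio of mean Itga3 to mean Itga6 ran from 0.0372 in NSC E18.5 to 1.68 in NBN PN, and r over the 23 group means was -0.68. Itga7, the laminin receptor subunit best known from muscle, rose in NSC to 3.46 to 11.9 TPM late (median 6.46), against 0 to 0.785 TPM mid (median 0.180; 2.58 ± 0.09, limma adjusted p = 5.66e-32), and in BP to 1.29 to 4.29 TPM late, against 0 to 0.905 TPM mid (1.49 ± 0.10).

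Itga4, an alpha subunit that binds fibronectin and the endothelial ligand Vcam1, was lower in NBN. It stood at 0.878 to 2.61 TPM in NBN (median 1.34), below all BP libraries at 3.05 to 8.99 TPM (median 5.96; -1.51 ± 0.09, limma adjusted p = 4.45e-21). That call was lost at a pseudocount of 5 TPM (-0.78). The fibronectin receptor subunit Itga5 was highest in the earliest NSC, with 22.8, 21.6 and 19.0 TPM at E10.5, and fell to 2.56 to 7.15 TPM at mid stages, against 9.70 to 22.8 TPM early (-1.62 ± 0.10, limma adjusted p = 1.71e-20). In BP Itga5 stood at 0.255 to 1.91 TPM (median 0.683), against 1.78 to 10.8 TPM in NSC (median 5.26; -1.82 ± 0.06). Itgb3bp, a centromere protein despite its name, was also lower in NBN than in NSC (-1.44 ± 0.08).

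**Figure D4:**
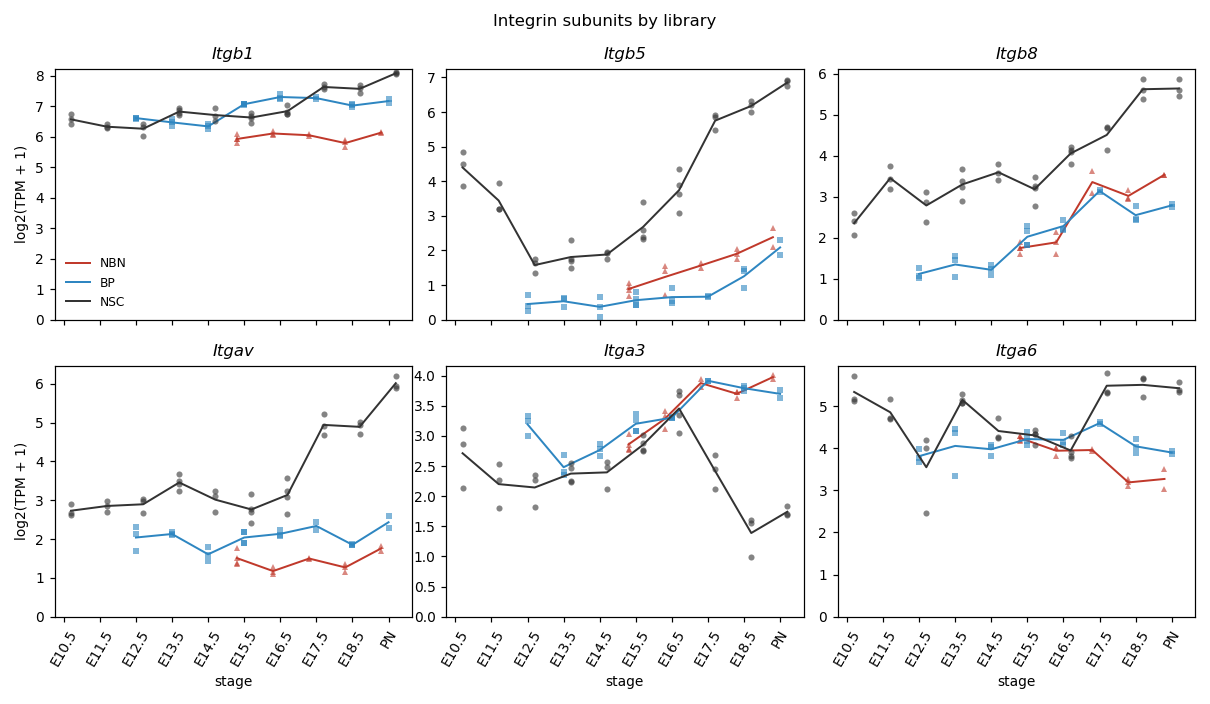
Levels of 6 integrin subunits as log2(TPM + 1) by stage, each point a library and each line the mean of a group, for NBN (red), BP (blue) and NSC (black). Itgb5, Itgb8 and Itgav climb in NSC from E16.5, Itgb1 is lowest in NBN, and Itga3 drops in NSC after E16.5 while the NBN libraries lie at 5.84 to 15.2 TPM and the BP libraries at 4.11 to 14.1 TPM.

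The change from mid to late stages differed between BP and NSC for 12 members by a test of the difference itself, with 1 higher and 11 lower in BP than in NSC (2.86% and 6.85% of all genes, 9.7% in either direction). Col5a3 and Itga2, among the 11, passed the minimum level only through late NSC, and no support is drawn from these shares. Itgb5 differed most: its log2 change was 0.85 ± 0.15 in BP and 4.14 ± 0.14 in NSC, a difference of -3.29 ± 0.21 (limma adjusted p = 1.1e-19). Col16a1 changed by 0.28 ± 0.16 in BP and 2.69 ± 0.15 in NSC (difference -2.40 ± 0.22), Col5a3, a minor fibrillar chain, by 0.06 ± 0.06 and 2.10 ± 0.06 (-2.03 ± 0.09) and Itgav by 0.28 ± 0.10 and 2.20 ± 0.09 (-1.92 ± 0.14). Col9a1, Itga2, Lama4, Col1a2, Itga7, Col4a5 and Lamb2 had differences from -1.91 to -1.06, and for Col1a2 the limma adjusted p was 0.0119. For Col9a1 the call was lost at a pseudocount of 5 TPM (-0.89), and for Itga7 under quantile normalization (-0.80). Without NSC E14.5 replicate 3 the calls of Col4a5 (-0.98) and Lamb2 (-0.97) were lost. That of Lamb2 was also lost without BP PN replicate 1 (-0.998). Conversely, Lamc1, Col27a1 and Col23a1 were called lower as well when some single libraries were left out.

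Itga3 was the one member called with a higher change in BP, at 0.99 ± 0.11 in BP and -0.69 ± 0.10 in NSC, a difference of 1.68 ± 0.15 (limma adjusted p = 3.49e-14). The BP libraries held 11.4 to 14.1 TPM of Itga3 late and 4.11 to 9.32 TPM mid. Under quantile normalization 3 members were higher and 11 lower, with Col18a1 and Lamb1 joining Itga3. Lamb1 was also called when any of 6 single libraries was left out, at 1.00 to 1.02: NSC E14.5 replicate 1, NSC E18.5 replicate 2, NSC PN replicate 1, BP E13.5 replicate 3, BP E17.5 replicate 1 or BP E18.5 replicate 2.

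**Figure D5:**
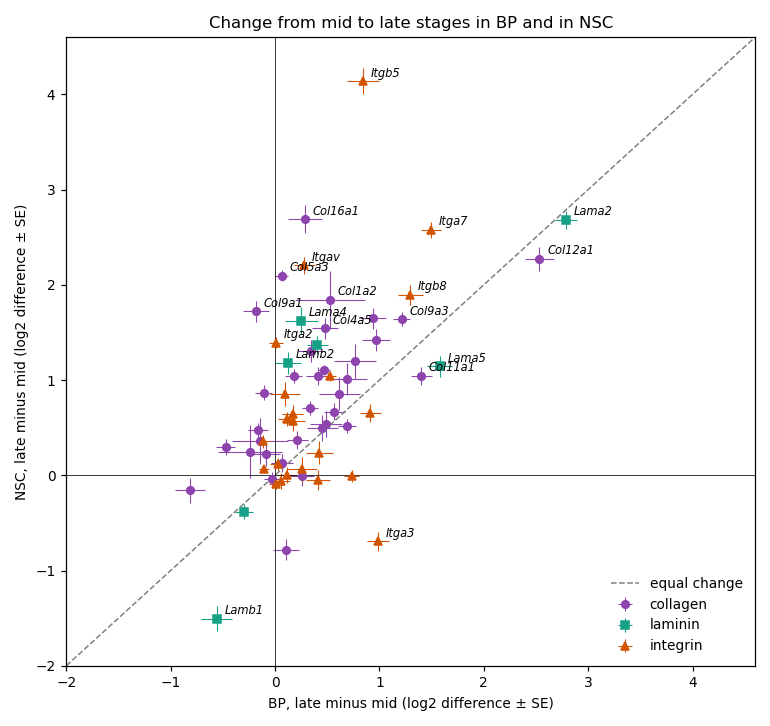
Change from mid to late stages in BP (x axis) and in NSC (y axis) for the 63 tested members, as log2 differences with bars of 1 SE, coloured by class; the dashed line marks equal change. Itgb5, Col16a1, Col5a3 and Itgav lie far above the line, Lama2 and Col12a1 lie near it with changes above 2 in both, and Itga3 lies below it.

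Glial markers changed beside these members. In late NSC all 6 oligodendrocyte precursor and all 6 astroglial markers were called higher and 6 of 8 neuronal markers lower. The summed oligodendrocyte precursor markers ran from 390 to 1730 TPM in late NSC and from 5.16 to 46.2 TPM in mid NSC, and were 3.91 to 19.9 TPM in late BP. The astroglial sum ran from 236 to 846 TPM in late NSC, from 34.7 to 88.5 TPM in mid NSC and from 50.6 to 109 TPM in late BP. The summed endothelial markers ran from 14.6 to 122 TPM in late BP and from 7.33 to 39.1 TPM in mid BP, and the sum of 5 choroid plexus markers from 2.29 to 809 TPM and from 5.04 to 95.1 TPM. Of 4 tested choroid plexus markers, 1 was called higher in late BP and 1 in late NSC. The part of these cells in the NSC and BP changes was not tested. Without the PN libraries, an alternative chosen after seeing the data, 19 members were called between late and mid NSC, all 19 among the 28. In NBN, 6 of 11 tested microglial markers were higher than in BP, and their sum ran from 5.48 to 89.0 TPM in NBN against 3.77 to 22.7 TPM in BP of the shared stages, and in late NBN 6 of 11 were higher than at E15.5 and E16.5. Their part in the NBN results was not tested.

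Other genes of the matrix pathway were taken from 4 lists. For BP against NSC, 1.87% of all tested genes were higher and 6.22% lower. Of 16 basement membrane partners none were higher and 5 were lower in BP than in NSC, with a median of -0.63, against -0.02 for all genes. They included Sparc, a matrix glycoprotein that binds collagen (-2.92 ± 0.10), and Nid2, a nidogen that bridges laminin and type IV collagen (-1.02 ± 0.09). Of 15 tested neural matrix genes 1 was higher and 5 were lower, with tenascin C (Tnc) at -3.78 ± 0.10 and reelin (Reln) at 1.79 ± 0.10. In the collagen processing list none of 19 were higher and 5 were lower, among them the collagen chaperone Serpinh1 (-1.12 ± 0.06) and the prolyl hydroxylase subunit P4ha3 (-2.43 ± 0.07). Of 20 integrin adaptors none were higher and 3 were lower, with Tns3, a tensin that links integrins to actin, at -2.77 ± 0.07.

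In NBN against BP, basement membrane partners gave 1 higher and 3 lower, neural matrix genes 3 and 2, collagen processing genes 1 and 3 and integrin adaptors 1 and 1, where 4.36% of all tested genes were higher and 5.06% lower. Fibronectin (Fn1), a ligand of Itga5 and Itga4, was higher in NBN (2.27 ± 0.11), and Hspg2, the basement membrane proteoglycan perlecan, was lower (-1.32 ± 0.10). The lysyl oxidase relative Loxl1, an enzyme that crosslinks matrix fibres, was lower (-3.15 ± 0.11). In mid against early NSC, 6 basement membrane partners were lower and 1 was higher, neural matrix genes gave 5 higher and 2 lower, collagen processing genes 1 and 4 and integrin adaptors 1 and 1, where 13.7% of all tested genes were higher and 5.26% lower. The proteoglycan Bcan was higher by 3.48 ± 0.17, Reln, which encodes reelin, by 3.39 ± 0.18 and Loxl1 by 2.08 ± 0.14. The nidogens Nid1 (-1.90 ± 0.20) and Nid2 (-2.16 ± 0.15) and Serpinh1 (-1.44 ± 0.10) fell beside Lama1, Col4a1 and Col4a2.

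From mid to late NSC 8 of 16 basement membrane partners rose and 1 fell, with a median of 1.06, against 0.12 for all genes, of which 9.31% were higher and 2.45% lower. Nid1 rose by 2.21 ± 0.18, Sparc by 2.19 ± 0.16 and the laminin receptor dystroglycan (Dag1) by 1.17 ± 0.12, while Fn1 was lower (-1.08 ± 0.12). Neural matrix genes gave 8 higher and 1 lower of 15, with Tnc at 5.49 ± 0.16 and Reln at -3.08 ± 0.16. Of 19 collagen processing genes 7 rose, with P4ha3 at 3.06 ± 0.11, and of 20 integrin adaptors 7 rose and 1 fell, with Lims2, a partner of integrin-linked kinase, at 2.42 ± 0.11 and talin (Tln1) at 1.15 ± 0.09. From mid to late BP the counts were 3 higher and 1 lower, 3 and 0, 3 and 1, and 1 and 0 over the same lists in that order, where 3.29% of all tested genes were higher and 1.42% lower, with Tnc at 2.23 ± 0.18 and Loxl1 at 2.65 ± 0.14.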

How the data were processed

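Gene expression was measured by RNA sequencing of sorted cells with short single reads (TruSeq RNA v2, per the labels' protocols). The authors deposited a gene table in TPM; the submitters' processing notes name kallisto 0.43.0, GRCm38.p2 and mm10, without their roles. All 70 columns were mapped by name. TPM of each library sum to a common total, so a large rise of a few genes lowers the rest. The 15508 genes whose mean reached 1 TPM in any group were fitted as log2(TPM + 1) with 1 mean per group in limma 3.58.1 (R 4.3.3; trended moderated variances, 47 residual degrees of freedom), with Benjamini-Hochberg adjustment over all genes. Calls need an adjusted p below 0.05 and a difference of at least 1. The fit was tested on simulated data. Coordinates are GENCODE M21 (GRCm38); promoters, found for 62 of 86 members, are RefSeq (GRCm38.p6), and protein sequences were not used here. Values by library are given for the 5 members of highest mean level per class and the 4 largest called differences per direction and comparison among members with at least 5 TPM on the higher side; others were named from the set. The members and gene lists were chosen with earlier results of these data known. Alternatives covered pseudocounts of 0.25 and 5 TPM, the filter, scaling, windows, the replicate number as a block and each library left out. The values of 1 member are not reported here.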

Additional observations from a re-analysis of the deposited data

Results flagged for a closer look

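In 25 members named by rule, the 5 groups of 4 libraries were each checked for a library far from the other 3, and 8 were found, where chance gives about 1 in 20. Col3a1 stood at 8.39 TPM in BP E15.5 replicate 1, against 2.20 to 2.91 TPM in the others, and the meningeal marker sum of that library was 16.1 TPM, against 6.22, 5.27 and 3.19 TPM. NSC E16.5 replicate 4 stood apart in 3 members: Lama5 at 12.2 TPM against 5.55 to 6.67 TPM, Itgb1bp1 at 28.0 TPM against 23.5 to 23.8 TPM, and Col1a2 at 1.40 TPM against 0.817 to 0.884 TPM. Col4a1 stood at 7.52 TPM in NSC E15.5 replicate 3, against 4.46 to 4.80 TPM, and at 8.45 TPM in NBN E15.5 replicate 3, against 11.3 to 11.7 TPM. Col2a1 stood at 56.0 TPM in NSC E13.5 replicate 2, against 71.3 to 73.5 TPM, and Lamc1 at 10.4 TPM in NBN E15.5 replicate 1, against 9.61 to 9.73 TPM.

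The change from mid to late stages in BP minus that in NSC was past the threshold for 12 members. It was -3.29 for Itgb5, -2.40 for Col16a1, -2.03 for Col5a3, -1.92 for Itgav, -1.91 for Col9a1, -1.39 for Itga2, -1.37 for Lama4, -1.32 for Col1a2, -1.08 for Itga7, -1.06 for Col4a5, -1.06 for Lamb2 and 1.68 for Itga3.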

How the results depend on the processing

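Over alternatives other than left-out libraries, 62 of 83 counts of called members stayed within 1.5 times the main count. A pseudocount of 5 TPM in place of 1 gave 6 for BP against NSC (main 12), 2 for NBN against BP (10), 14 for NBN against NSC (26), 10 for NSC mid against early (17), 14 for NSC late against mid (28), 3 for BP late against mid (7), 0 for NBN late against early (4; by limma 19 higher and 2 lower at an unadjusted p below 0.05) and 4 for the difference in change (12). A pseudocount of 0.25 TPM gave 29 for NSC mid against early and 16 for BP late against mid. With no minimum difference the counts were, in the same order, 49, 42, 56, 52, 47, 34, 18 and 39. Stages from E17.5 alone gave 22 for BP against NSC, and stages up to E16.5 gave 16 for NBN against NSC, where Itga3 reversed to -0.083. Without the PN libraries, chosen after seeing the data, NBN late against early gave 2. The matching shares of all tested genes under alternative settings are not given here. Nothing particular to the members is therefore read from the counts under such settings, here or above.

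Leaving out each library in turn gave 11 to 12, 10 to 11, 25 to 28, 16 to 18, 26 to 29, 7 to 9, 4 to 4 and 10 to 14. For members named by rule, in the comparisons that named them for a large difference, all 1028 such values kept direction and call. In other comparisons some calls of these members were lost. Examples are Lamb2 in the difference in change without NSC E14.5 replicate 3 (-0.97) and Col11a1 in late against mid NSC without NSC E18.5 replicate 2 (0.9995). Without NSC E10.5 replicate 1, E11.5 replicate 3 or E14.5 replicate 1, Lamb1 joined Col9a3 as higher in mid NSC (1.06, 1.11 and 1.01). Without NBN E16.5 replicate 1, Col3a1 joined Col15a1 as higher in NBN than in BP. With all libraries, Col4a2 joined Col15a1 under quantile normalization (1.02) and under median ratio scaling (1.01). Of 385 values of named members under the other alternatives, in the comparisons that named them, 368 kept their call, 16 fell below the threshold and 1 reversed. The cause was not tested. The fit with a replicate block gave the same 12, 10, 26, 17, 28, 7, 4 and 12, with a block correlation of 0.06. Of 51 pairs of libraries with the same number, 18 had a correlation of deviations over 0.1 (median 0.04). For NBN and BP, which share a reporter line, it was 8 of 14 (median 0.12). It was 9 of 23 for BP and NSC (median 0.04) and 1 of 14 for NBN and NSC (median -0.04). Whether the numbers pair NBN and BP libraries cannot be told from these values. Depth is unknown, and low levels are compressed by the pseudocount.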
